A study of Homo sapiens with 12 samples.

Results

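Interferon-stimulated genes are the genes that cells switch on when interferon reaches them. The set described here holds 41 of them, with the STAT and IRF transcription factors and the guanylate-binding proteins, chosen by gene symbol from the 26365 genes of the table. All 41 were found, and all 41 passed the filter on low values that left 13950 genes to be tested. RNA was measured in HCC70, a human breast cancer line of the basal, triple-negative type. The cells stably expressed either a LAD1-targeting shRNA (shLAD1 cells) or a scrambled control shRNA (scramble cells). Both kinds were starved of serum overnight. Epidermal growth factor (EGF) was then added at 50 ng/ml, and RNA was taken after 0, 40 or 240 min, so every library comes from starved, shRNA-carrying cells. Each of the 6 groups has 2 libraries, numbered 1 and 2 in the labels, and the labels name no interferon treatment. The 12 libraries can be read as 4 cell populations (scramble number 1, scramble number 2, shLAD1 number 1 and shLAD1 number 2) at 3 times each. In the sample descriptions every number 1 library carries the prefix o and every number 2 library the prefix s, and what these stand for is not known here. The labels do not say whether the numbers mark separate cultures, and they name a single shRNA against LAD1. They name no EGF-free library at the later times, so EGF and elapsed time cannot be told apart, nor can LAD1 loss and any other effect of that shRNA.

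Type I and type III interferons bind receptors that activate the kinases JAK1 and TYK2, which phosphorylate STAT factors. STAT2 and IRF9 are parts of the resulting factor ISGF3, which binds the interferon-stimulated response element (ISRE) in the promoters of most of these genes. Type II interferon acts through the gamma-activated sequence (GAS), and IRF1 then carries that signal to further promoters. The products sense foreign RNA, destroy or block it, tag proteins with the ubiquitin-like ISG15, restrict viral entry and release, and feed back on the pathway. Many breast cancer cells express part of the set without added interferon.

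Promoters are shown for some of the genes in the comparisons below, each of them with an ISRE or GAS match. RefSeq promoter windows (GRCh38.p14, 250 bases before to 50 bases after the start) matched 31 of the 41 genes by symbol, DDX58 through its newer name RIGI. IFIT2, IFITM2, MX2, OAS2, OASL, DHX58, IRF2, IRF7, GBP2 and USP18 were not matched. The ISRE core was searched on both strands as GAAA, any 2 bases and GAAA again, and the GAS as TTCNNNGAA, which is its own reverse complement; the 2 searches were allowed to overlap, as they do in IFI27. Below are the 200 bases before the start of 7 genes, 5′ to 3′ on the gene's strand, with ISRE cores in capitals (in OAS1, the GAS). GBP1 (chr1:89065209-89065408, minus strand), ISG20 (chr15:88638816-88639015, plus strand), SAMD9 (chr7:93117980-93118179, minus strand) and IFI44 (chr1:78649589-78649788, plus strand) stand for the EGF time course. OAS1 (chr12:112906762-112906961, plus strand) stands for the shRNA comparison, and IFI6 (chr1:27672193-27672392, minus strand) and IFIT1 (chr10:89392423-89392622, plus strand) for the comparison of the numbered libraries.
GBP1: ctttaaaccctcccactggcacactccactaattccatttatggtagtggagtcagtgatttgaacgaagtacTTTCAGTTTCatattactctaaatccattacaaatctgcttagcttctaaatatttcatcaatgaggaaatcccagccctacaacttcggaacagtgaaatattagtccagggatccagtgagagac
ISG20: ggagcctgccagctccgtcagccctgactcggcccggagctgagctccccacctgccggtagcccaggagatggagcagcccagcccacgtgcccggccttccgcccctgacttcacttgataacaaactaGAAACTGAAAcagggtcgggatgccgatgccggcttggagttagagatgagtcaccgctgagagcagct
SAMD9: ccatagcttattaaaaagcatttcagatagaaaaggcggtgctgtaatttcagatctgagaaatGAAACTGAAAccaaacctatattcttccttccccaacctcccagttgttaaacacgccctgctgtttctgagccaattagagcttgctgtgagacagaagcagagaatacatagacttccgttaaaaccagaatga
IFI44: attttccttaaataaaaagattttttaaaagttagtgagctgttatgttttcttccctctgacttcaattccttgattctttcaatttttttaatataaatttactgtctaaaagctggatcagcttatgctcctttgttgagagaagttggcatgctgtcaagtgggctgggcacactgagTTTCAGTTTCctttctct
OAS1: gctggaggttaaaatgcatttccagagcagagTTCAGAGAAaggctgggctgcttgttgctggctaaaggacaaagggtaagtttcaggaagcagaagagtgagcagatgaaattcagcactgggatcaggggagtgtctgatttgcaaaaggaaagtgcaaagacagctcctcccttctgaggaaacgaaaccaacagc
IFI6: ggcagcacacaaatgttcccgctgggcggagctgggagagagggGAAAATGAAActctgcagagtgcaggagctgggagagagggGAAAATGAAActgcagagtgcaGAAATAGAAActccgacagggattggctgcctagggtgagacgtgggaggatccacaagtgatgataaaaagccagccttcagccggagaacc
IFIT1: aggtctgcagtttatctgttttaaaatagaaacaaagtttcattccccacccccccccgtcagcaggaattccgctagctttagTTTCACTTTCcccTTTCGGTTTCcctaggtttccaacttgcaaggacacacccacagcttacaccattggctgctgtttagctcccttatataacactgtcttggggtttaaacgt

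The ISRE core of GBP1 begins 127 bases before the start, that of ISG20 69, that of SAMD9 136 and that of IFI44 18 bases before it. IFI6 holds 3 cores, 156, 115 and 93 bases before the start, and IFIT1 holds 2, at 116 and 103 bases. OAS1 has no match to the ISRE core as searched in its window but a GAS 168 bases before the start. Near its end the printed OAS1 stretch holds gaaacgaaa, which the search for a gap of 2 bases did not count. Across the set, 23 genes had an ISRE core in at least 1 window, and 13 had 2 or more in the same window. By window this was 69.2% of 39 windows, against 3.57% of all 35116 promoter windows, and 0.259% of all windows hold 2 or more cores. A GAS was present in 10 genes and in 28.2% of the 39 windows, against 7.66% of all windows. IFI35, OAS1, DDX58, STAT2, IRF1, IRF9, HERC6 and XAF1 had no match to the ISRE core as searched in these windows, and other spacings were not searched. Of these, STAT2, called in the EGF time course below, also had no GAS and is not among the printed stretches. A match is a stretch of letters, and binding was not measured.

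Libraries held 12428618 to 16721013 reads. Values are normalized counts (reads divided by a size factor per library), which allow a gene to be compared between libraries but not 1 gene with another. LAD1 had 5925, 5808 and 9102 normalized counts at 0, 40 and 240 min in scramble number 1 and 6406, 6522 and 10190 in number 2, against 1091, 1181 and 2535 and 865, 971 and 2297 in shLAD1 cells, so every shLAD1 library was below every scramble library. The basal epithelial markers KRT5, KRT14, KRT17, EPCAM and CDH1 were high in every library and TP63 was at 15.4 to 34.5. Of the leukocyte markers, PTPRC, CD3E and LYZ had at most 3 normalized counts in any library, while CD14 was at 547 to 1354 and CD68 at 741 to 1577. Of the fibroblast markers DCN was at 0 in all libraries and COL1A1 at 243 to 895. Differences are between means of log2(normalized count + 1), a scale that shrinks changes of low genes, and ± gives the standard error from limma-trend. A gene is called at an adjusted p below 0.05, adjusted over all 13950 genes of the comparison, and p-values measure only the spread between these libraries.

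The numbered libraries differed in much of the set, in both kinds of cells. This comparison (number 1 minus number 2) was added after the values had been seen. In all 6 groups 23 of the 41 genes were higher in number 1, against 12.9% of all genes tested, and 2 (IFITM2 and GBP3) were lower in all 6, against 14.5% of all genes. With the group means fitted beside the number, 21 genes were called (24.3% of all genes), 19 higher in number 1 (11.8%) and 2 lower (12.5%). The median difference was 0.30 over the 41 genes and -0.01 over all genes. With 1 mean per population, 4 in all, and the number fitted beside the shRNA, no gene of the set was called (0% of all genes), and 21 were at an unadjusted p below 0.05. IFI6 came nearest, at an adjusted p of 0.0743, and IFI27, IFIT1 and MX1 followed at 0.0793 each. Within scramble cells 19 were called (21.5% of all genes), 17 higher (11.0%) and 2 lower (10.5%). Within shLAD1 cells 26 were called (43.3%), 21 higher (21.0%) and 5 lower (22.4%). Apart from the population means, these tests take the 3 times of a population as replicates, so they show that a difference held over the times and not how often populations differ. Of the 21 calls over all groups, those of IFIT2, MX2, RSAD2 and USP18 were also lost under at least 1 setting other than the population means, in most cases a library left out. Within scramble cells this held for 9 of 19 (GBP3, HERC6, IFIT5, IRF9, MX1, OAS1, STAT2, USP18 and XAF1) and within shLAD1 cells for 6 of 26 (IFI35, IFIT1, IFIT3, IRF1, MX1 and XAF1). Reads per library overlapped (12428618 to 16721013 in number 1, 12635421 to 16011936 in number 2). Some basal markers moved with the number. KRT14 was at 519.8 to 559.9 in shLAD1 number 1 and 1558 to 1882 in number 2, and KRT17 at 3811, 8384 and 11200 against 6819, 21920 and 23740 at 0, 40 and 240 min. In scramble cells KRT14 was at 969 to 1064 and 1151 to 1218. The 6 basal markers summed to 57860 to 93030 in number 1 and 65130 to 115800 in number 2. CD14, a leukocyte marker, was at 547 to 584 in shLAD1 number 1 and 1117 to 1326 in number 2, and at 873 to 1038 and 1111 to 1354 in the scramble numbers. The 6 leukocyte markers summed to 1632 to 2162 in number 1 and 1853 to 2875 in number 2, the 6 fibroblast markers to 259 to 706 and 243 to 897, and the 4 endothelial markers to 10.1 to 46.0 and 12.5 to 41.9. The part of these markers in the difference was not tested. In bulk RNA, fewer cells that express a gene and less of its RNA per cell cannot be told apart.

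**Figure D1:**
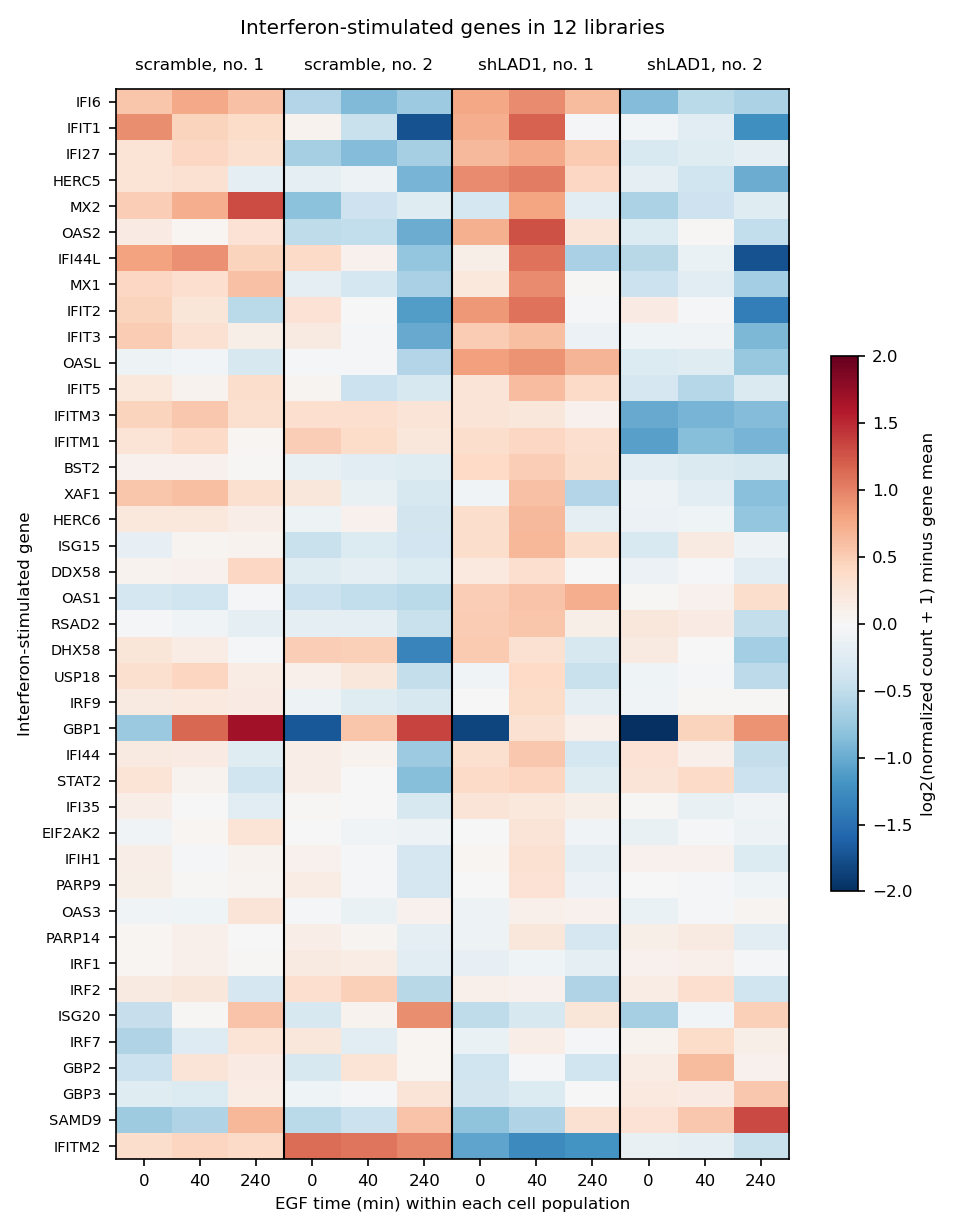
The 41 interferon-stimulated genes (rows, ordered by the number 1 minus number 2 difference) in the 12 libraries (columns, EGF time in min within each population). Color gives log2(normalized count + 1) minus the gene's mean over the libraries, red higher and blue lower. Genes of the upper rows are redder in number 1 than in number 2 of both shRNAs, and GBP1 runs from blue to red with EGF time in each population.

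IFI6 and IFI27, small membrane proteins of the mitochondria and endoplasmic reticulum, were among those that differed most. IFI6 had 2633, 3035 and 2701 normalized counts at 0, 40 and 240 min in scramble number 1 and 1193, 974 and 1083 in number 2. In shLAD1 cells IFI6 had 3077, 3469 and 2801 in number 1 and 985, 1233 and 1158 in number 2. No number 1 library overlapped a number 2 library, with ratios of 2.21 to 3.12 and a difference of 1.42 ± 0.07 (adjusted p = 5.49e-06). IFI27 had 2120, 2342 and 2204 in scramble number 1 and 1110, 966 and 1112 in number 2, against 2753, 2991 and 2535 and 1428, 1484 and 1530 in shLAD1 cells. Its difference was 0.98 ± 0.06 (adjusted p = 7.77e-06), and the groups again did not overlap. IFI44L, a relative of the microtubule-associated IFI44 of uncertain function, had 421, 455 and 328 and 314, 254 and 140.3 in scramble numbers 1 and 2, and 261, 514 and 152 and 164, 219 and 71 in shLAD1 numbers 1 and 2. Number 1 was higher in each group, by 0.91 ± 0.11 (adjusted p = 0.000456), although shLAD1 number 1 at 0 and 240 min lay within the range of number 2. IFI35, which binds the factor NMI, had 280.5, 259 and 219.5 and 260.1, 257 and 206 in the scramble numbers and 307, 297 and 277 and 260.5, 232 and 243 in the shLAD1 numbers. It was called within shLAD1 cells (0.26 ± 0.08, adjusted p = 0.00909), but not by DESeq2 or without either 40 min library.

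The IFIT proteins bind foreign RNA ends and block their translation. IFIT1 had 599, 426 and 405 in scramble number 1 and 331, 231 and 93.5 in number 2. In shLAD1 cells it had 522, 714 and 306 and 303, 269 and 133. Each number 1 library was 1.72 to 4.33 times its number 2 partner, a difference of 1.20 ± 0.17 (adjusted p = 0.00368). IFIT3 had 674, 584 and 512 and 534, 464 and 233 in the scramble numbers and 668, 712 and 435 and 446, 447 and 251 in the shLAD1 numbers. IFIT5 had 234, 212 and 258 and 211, 150.3 and 163 in the scramble numbers and 242, 311 and 265 and 159.8, 135 and 165 in the shLAD1 numbers. IFIT3 (0.64 ± 0.10, adjusted p = 0.00272) and IFIT5 (0.63 ± 0.11, adjusted p = 0.00411) were called higher in number 1. IFIT2 had 718, 629.8 and 364 and 648, 530.2 and 243 in the scramble numbers, and 968, 1130 and 519.8 and 590.3, 519 and 203 in the shLAD1 numbers. Its difference was 0.69 ± 0.17 over both (adjusted p = 0.0274). These 4 genes belong to a family, and it is not known here how the counting treated reads that match more than 1 of them.

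The OAS enzymes make the 2-5A signal that activates RNase L. OAS2 had 224, 206 and 243 and 141, 141 and 100.2 in the scramble numbers, and 328, 485 and 240.4 and 165, 203 and 142 in the shLAD1 numbers. It was higher in number 1 by 0.91 ± 0.10 (adjusted p = 0.000288). OAS1 had 562, 540.2 and 701 and 532, 505 and 489 in the scramble numbers, and 1003, 1064 and 1179 and 726, 762 and 910.5 in the shLAD1 numbers, a smaller difference of 0.34 ± 0.07 (adjusted p = 0.00624). OAS3 had 1618, 1606 and 2038 and 1666, 1559 and 1819, and 1587, 1839 and 1810 and 1561, 1661 and 1781, in the same order. Its populations overlapped throughout, and between the numbers it was not called. OASL, an enzymatically inactive relative that supports RIG-I, had 475, 489 and 406 and 504, 498 and 338 in the scramble numbers, which overlapped, but 899.5, 953 and 819.5 against 422, 432 and 302 in the shLAD1 numbers. ShLAD1 number 1 was thus above every other library.

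ISG15 is attached to new proteins by the ligase HERC5 and removed by the protease USP18. ISG15 had 1171, 1358 and 1370 and 962, 1080 and 1003 in the scramble numbers, and 1664, 2067 and 1664 and 1056, 1487 and 1215 in the shLAD1 numbers. HERC5 had 210.1, 216 and 154 and 152, 162 and 91.3 in the scramble numbers, and 336, 353 and 233 and 153, 132 and 87 in the shLAD1 numbers. Both were called higher in number 1, ISG15 by 0.44 ± 0.05 (adjusted p = 0.000217) and HERC5 by 0.93 ± 0.15 (adjusted p = 0.00321). HERC6, a relative of HERC5, had 316, 316 and 301 and 255, 289.7 and 213, and 348, 432 and 242 and 252, 258 and 160.1, in the same order. USP18, also an inhibitor of the interferon receptor, had 491, 528 and 434 and 422, 457 and 279.5 in the scramble numbers and 372, 516 and 286 and 368, 382 and 272 in the shLAD1 numbers. HERC6 (0.46 ± 0.08, adjusted p = 0.00298) and USP18 (0.26 ± 0.08, adjusted p = 0.0353) were called too. The USP18 call was lost in DESeq2 and in 8 of the 12 fits that left out 1 library, those without any of the 6 scramble libraries or either shLAD1 40 min library.

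The large GTPases did not all differ in the same direction between the numbers. MX1, which traps viral nucleoproteins, had 1268, 1201 and 1418 and 829, 746 and 606 in the scramble numbers, and 1096, 1828 and 966 and 702, 812 and 593 in the shLAD1 numbers. MX2, which blocks nuclear import of HIV-type viruses, had 32.1, 38.1 and 57.4 and 12.3, 16.7 and 18.9, and 17.5, 39.6 and 19.4 and 14.2, 16.8 and 19, few reads at every time. Both were higher in number 1 in each group, MX1 by 0.84 ± 0.09 (adjusted p = 0.00064) and MX2 by 0.92 ± 0.22 (adjusted p = 0.0158). The guanylate-binding proteins attack vacuoles that hold pathogens. GBP3 had 1497, 1471 and 1968 and 1670, 1728 and 2134 in the scramble numbers, and 1379, 1470 and 1775 and 2028, 2004 and 2585 in the shLAD1 numbers, and was lower in number 1 (-0.34 ± 0.06, adjusted p = 0.006). GBP2 had 1206, 1940 and 1814 and 1299, 1956 and 1676 in the scramble numbers, with no steady order. In shLAD1 cells GBP2 had 1235, 1582 and 1232 in number 1 and 1805, 2531 and 1721 in number 2, lower in number 1 at each time. GBP1, with values given below, was higher in number 1 in 4 of the 6 groups. Its ratios of number 1 to number 2 were 1.26 to 1.94 in scramble and 0.577 to 1.28 in shLAD1 cells, and it was not called between the numbers.

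The IFITM proteins hold viruses in endosomes, and BST2 (tetherin) holds new virus particles at the cell surface. IFITM1 had 1051, 1130 and 888 and 1219, 1126 and 1018 in the scramble numbers, 1113, 1158 and 1095 in shLAD1 number 1 and 408, 479 and 456 in shLAD1 number 2. IFITM3 had 2148, 2272 and 1973 and 1977, 1990 and 1888 in the scramble numbers, 1877, 1831 and 1662 in shLAD1 number 1 and 779.6, 829 and 859.5 in shLAD1 number 2. For both genes shLAD1 number 2 stood apart, below all 9 other libraries. IFITM2 had 288, 305 and 295 and 492, 473 and 439 in the scramble numbers, and 108, 92.7 and 98.2 and 204, 196 and 165 in the shLAD1 numbers, so that here number 1 was lower in each group (-0.78 ± 0.07, adjusted p = 0.000104). The 3 genes are near-identical neighbors, and a split of reads between them is uncertain. IFITM3 also overlaps the antisense gene AC136475.5, and whether strand was used in counting is not given in the labels or notes. BST2 had 3265, 3270 and 3136 and 2777, 2674 and 2601 in the scramble numbers, and 4079, 4321 and 3947 and 2674, 2531 and 2467 in the shLAD1 numbers, higher in number 1 by 0.48 ± 0.08 (adjusted p = 0.00468).

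Among the RNA sensors DDX58 (RIG-I) had 1098, 1109 and 1397 and 883, 924 and 871 in the scramble numbers, and 1200, 1333 and 1041 and 969, 1026 and 902 in the shLAD1 numbers, higher in number 1 by 0.36 ± 0.06 (adjusted p = 0.00204). IFIH1 (MDA5) ranged over 391 to 611, its modulator DHX58 (LGP2) over 23.4 to 86.2 and the RNA-activated kinase EIF2AK2 (PKR) over 625 to 842, and none of these 3 was called between the numbers. Of the transcription factors, IRF9 had 1346, 1361 and 1340 and 1112, 1008 and 956 in the scramble numbers and 1181, 1531 and 1052 and 1131, 1208 and 1208 in the shLAD1 numbers. IRF9 was called higher in number 1 within scramble cells (0.40 ± 0.09, adjusted p = 0.0106) and so was STAT2 (0.22 ± 0.07, adjusted p = 0.0241). The IRF9 call was lost without any 1 of the 4 scramble libraries of 40 and 240 min, and the STAT2 call in DESeq2 and without any 1 of those of 0 and 240 min (0.106 to 0.298 over the settings). IRF1 had 636, 664 and 630.4 and 706, 690.5 and 534, and 556, 588 and 547 and 656, 667 and 601, and was called lower in number 1 within shLAD1 cells (-0.19 ± 0.06, adjusted p = 0.0231), a call lost in DESeq2 and without any 1 of the 4 shLAD1 libraries of 0 and 40 min. IRF7, the amplifier of interferon production, ranged over 47.6 to 93.2 and was called in no comparison under any setting run.

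RSAD2 (viperin), which makes a chain-terminating nucleotide, had 179, 174 and 162 and 160.4, 161 and 135 in the scramble numbers and 261, 270.3 and 198 and 214, 205 and 131 in the shLAD1 numbers. XAF1, an antagonist of the death inhibitor XIAP, had 411, 421 and 349 and 327, 252 and 224, and 264, 416 and 184 and 259.5, 237 and 155, in the same order. RSAD2 (0.30 ± 0.08, adjusted p = 0.0176) and XAF1 (0.46 ± 0.10, adjusted p = 0.0112) were higher in number 1, and XAF1 shares exons with the antisense gene PRAL. The ADP-ribosyltransferase PARP9 had 1840, 1736 and 1762 and 1884, 1666 and 1346, and 1692, 2077 and 1574 and 1701, 1684 and 1598. PARP14, of the same family, had 1411, 1483 and 1377 and 1502, 1434 and 1205, and 1275, 1609 and 1089 and 1494, 1561 and 1169. Neither was called between the numbers, and their populations overlapped. With OAS3, IFIH1, DHX58, EIF2AK2 and IRF7 they are the 7 genes called in no comparison by limma-trend with all 12 libraries, the deposited scaling and no block in the shRNA and EGF tests, and the other 34 were called at least once. Under other settings OAS3, IFIH1, DHX58 and PARP14 were called with a replicate block, and PARP9 and EIF2AK2 when 1 library was left out.

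Whether the number 1 to number 2 difference was itself the same in both kinds of cells was tested as an interaction, and 9 of the 41 genes were called (23.4% of all genes). IFITM1, IFITM3, OASL, HERC5, IFIT2 and BST2 had the larger number 1 excess in shLAD1 cells, and SAMD9, GBP2 and GBP3 the larger deficit. SAMD9, which stalls translation during poxvirus infection, had 1785, 1917 and 4609 and 2016, 2174 and 4343 in the scramble numbers, 1667, 1936 and 3608 in shLAD1 number 1 and 3587, 4228 and 7328 in shLAD1 number 2. At each time shLAD1 number 2 was above the other 3 populations. IFI6, IFI27, IFIT1, OAS2 and MX1 were not called in this test, at 0.10 ± 0.16, -0.17 ± 0.09, -0.15 ± 0.43, 0.17 ± 0.17 and -0.00 ± 0.24. Leaving out the scramble 240 min library number 1, or number 2, gave 14 calls in place of 9, and the IFIT2 call was lost without either scramble 40 min library.

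**Figure D2:**
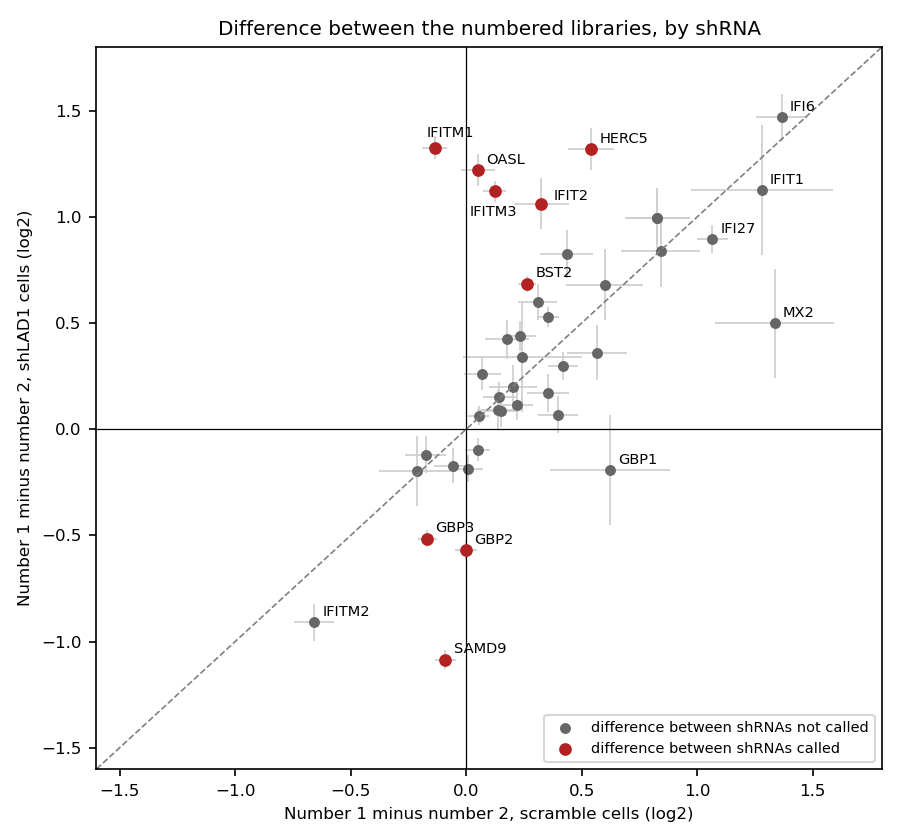
Number 1 minus number 2 difference (log2) of each of the 41 genes in scramble cells (x axis) and in shLAD1 cells (y axis), with bars of 1 standard error of the fit and a dashed line of equal difference. Red points are the 9 genes whose difference was called between the shRNAs. IFI6, IFIT1 and IFI27 lie in the upper right, while IFITM1 and OASL are near 0 on the x axis and above 1 on the y axis.

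**Figure D3:**
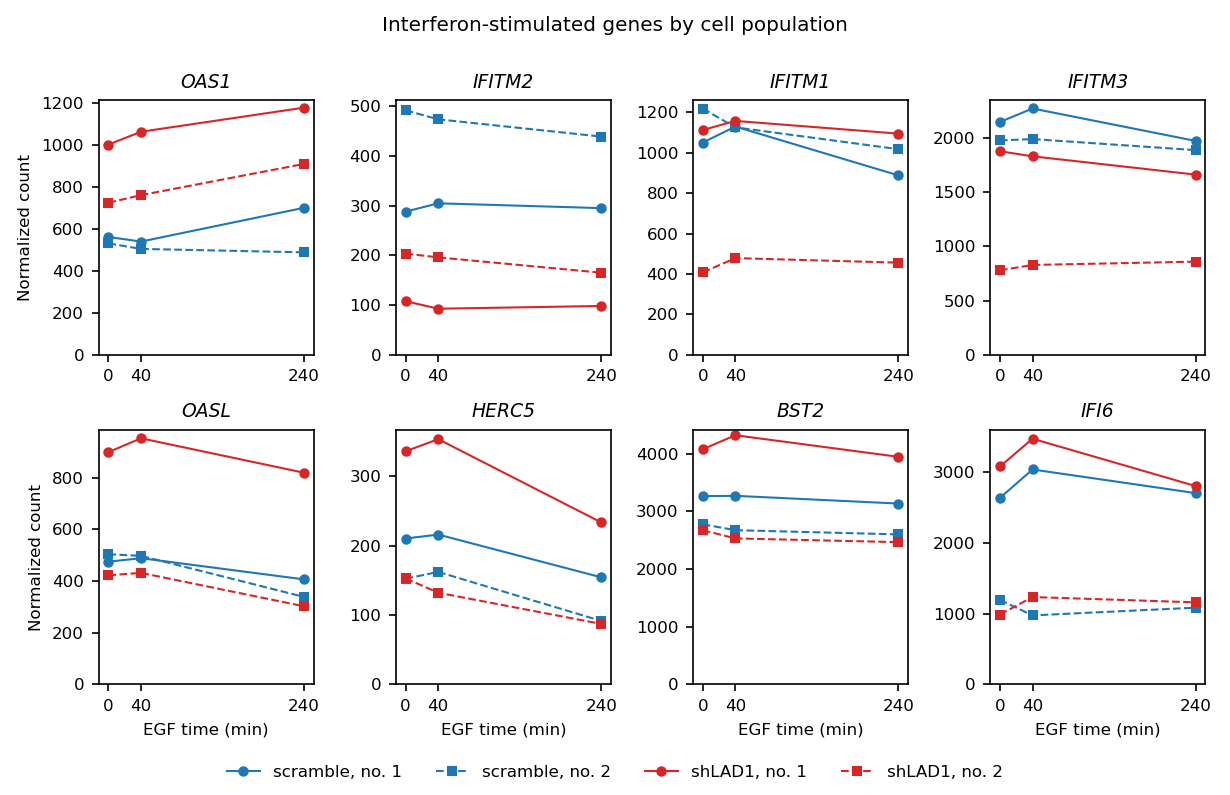
Normalized counts (y axes from 0) of 8 genes at 0, 40 and 240 min of EGF (x axis, to scale), 1 line for each population and 1 point for each library; blue is scramble, red shLAD1, solid lines number 1 and dashed lines number 2. OAS1 lies higher and IFITM2 lower in both shLAD1 populations, shLAD1 number 2 alone is low in IFITM1 and IFITM3, shLAD1 number 1 alone is high in OASL, and IFI6 separates by number.

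The shRNA comparison asks whether these genes differed between shLAD1 and scramble cells over the 3 times, 6 libraries against 6. OAS1 was higher and IFITM2 and GBP1 were lower in shLAD1 cells, so that 3 of 41 genes were called (18.6% of all genes), 1 higher (9.25%) and 2 lower (9.30%). The share is below the background, and the median difference was 0.02 over the set and -8.79e-07 over all genes. OAS1 ran from 489 to 701 in scramble cells and from 726 to 1179 in shLAD1 cells, the values listed above. Every shLAD1 library was above every scramble library, and OAS1 was the only gene of the set with that order (3.16% of all genes). Its difference was 0.75 ± 0.13 (adjusted p = 0.0071), and an antisense gene, AC004551.1, shares part of its exons. IFITM2 ran from 288 to 492 in scramble cells and from 92.7 to 204 in shLAD1 cells, with no overlap and a difference of -1.44 ± 0.28 (adjusted p = 0.0118). IFITM3 was also lower in every shLAD1 library (3.99% of all genes have that order), but by only 1877 against 1888 at the nearest pair, and it was not called (-0.75 ± 0.28, adjusted p = 0.104).

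GBP1 was lower in shLAD1 cells at each time but with much overlap between times. At 0 min it had 420.3 and 217 normalized counts in scramble numbers 1 and 2 and 196 and 153 in shLAD1 numbers 1 and 2. At 40 min the values were 1561 and 1037 against 865 and 958, and at 240 min 2242 and 1785 against 752 and 1304. Within each time the groups did not overlap, and the mean difference was -0.77 ± 0.21 (adjusted p = 0.0413). That call was lost without the low-count filter and in 10 of the 12 fits that left out 1 library, with differences of -0.924 to -0.607 over the 12. Taking 1 mean per population, 2 against 2, no gene of the set was called (0% of all genes), with 3 at an unadjusted p below 0.05 and adjusted p of 0.269 for OAS1, 0.307 for IFITM2 and 0.33 for GBP1. Leaving out the shLAD1 240 min library number 2 gave 5 calls, with RSAD2 higher and ISG20 lower added. The fibroblast markers summed to 243 to 377 in scramble and 510 to 897 in shLAD1 cells, nearly all of it COL1A1, and the endothelial markers to 10.1 to 19.7 and 29.8 to 46.0; their part in these differences was not tested.

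With the library number as a replicate block, 13 genes were called in the shRNA comparison (36.1% of all genes). The block takes out only a number 1 to number 2 difference shared by scramble and shLAD1 cells. An unlike difference stays in, as for IFITM3 (means over the times of 1790 and 823 in shLAD1 numbers 1 and 2, 2131 and 1952 in scramble). The fit also takes the 3 times of a population as replicates. The 6 higher genes were OAS1, ISG15 (0.38 ± 0.05, adjusted p = 0.000256), IFI27 (0.40 ± 0.06), OAS2 (0.50 ± 0.10), RSAD2 (0.36 ± 0.08) and STAT2 (0.26 ± 0.06). The 7 lower genes were IFITM2, GBP1, IFI44L (-0.62 ± 0.11, adjusted p = 0.00177), IFITM3, XAF1 (-0.42 ± 0.10), ISG20 (-0.27 ± 0.07) and USP18 (-0.25 ± 0.08). Among these calls the direction differed within the ISG15 system (ISG15 higher, its protease USP18 lower), and the 3 called IFITM and GBP genes were all lower.

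At single times limma-trend called 0 of 41 genes at 0 min (1.56% of all genes), 0 at 40 min (1.65%) and 0 at 240 min (0.953%), with 2, 4 and 4 at an unadjusted p below 0.05. EdgeR called 0 at each time, and DESeq2 called OAS1 at 40 min (0.81, adjusted p = 0.0309) and 240 min (0.81, adjusted p = 0.0359). The block gave 6 at 0 min (11.5%), 7 at 40 min (11.3%) and 4 at 240 min (10.5%). OAS1 and IFITM2 were called with the block at all 3 times, OAS1 at 0.64, 0.78 and 0.82 and IFITM2 at -1.34, -1.49 and -1.49. The authors' deposited table holds 1 comparison whose groups its header does not name. Its log2 fold changes lay within 0.01 of the shLAD1 to scramble ratio at 0 min for 11241 of 11243 genes with a mean of at least 50. Of 13909 genes in the authors' deposited table, 495 had an adjusted p below 0.05 and none of the 41 did, with IFITM2 at -1.32 (adjusted p = 0.0845) and OAS1 at 0.66 (adjusted p = 0.12).

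After 40 min of EGF, GBP1 was the only gene of the set called. It was higher in every population, 3.71-fold and 4.78-fold in scramble numbers 1 and 2 and 4.41-fold and 6.27-fold in shLAD1 numbers 1 and 2. In shLAD1 cells the rise was 2.39 ± 0.37 (adjusted p = 0.0221), the only call among the 41 genes (1.04% of all genes). That call was lost when any 1 of the 4 libraries was left out, at 2.21 to 2.57. In scramble cells limma-trend called 0 genes of the set (0.853% of all genes) and 3 at an unadjusted p below 0.05, with GBP1 at 2.07 ± 0.37 (adjusted p = 0.0537). There edgeR called 0, DESeq2 called GBP1 (2.03, adjusted p = 2.6e-07), and leaving out the scramble 0 min library number 1 gave 1 call. GBP2 and ISG20 were higher at 40 min in all 4 populations, with ratios of 1.28 to 1.61 and 1.14 to 1.53. Neither was called, at 0.64 ± 0.25 and 0.42 ± 0.25 for GBP2 and 0.43 ± 0.15 and 0.40 ± 0.15 for ISG20 in scramble and shLAD1 cells. With the block, shLAD1 cells gave 2 calls (1.96% of all genes), GBP1 and ISG15 (0.40 ± 0.08, adjusted p = 0.0369). A block fitted separately for each shRNA was added once values were known; with it 2 genes were called in scramble cells (3.80% of all genes), GBP2 and ISG20 but not GBP1, and 6 in shLAD1 cells (4.77%), GBP1, GBP2, ISG20, ISG15, SAMD9 and IFI44L, all higher.

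The shLAD1 number 1 library at 40 min was the highest of all 12 in many genes of the set, of which some are given here. It held 714 normalized counts of IFIT1, 1828 of MX1, 485 of OAS2 and 2067 of ISG15, against 522, 1096, 328 and 1664 at 0 min in the same population. In shLAD1 number 2 the changes of IFIT1 (303 to 269), MX1 (702 to 812) and OAS2 (165 to 203) were smaller or opposite. ISG15 rose more there, from 1056 to 1487 (1.41-fold, against 1.24-fold in shLAD1 number 1). None of these was called at 40 min without a block. In shLAD1 cells 36 of the 41 genes had a positive difference at 40 min (6798 of all 13950 genes). The median was 0.14 over the set and -0.003 over all genes. In scramble cells 18 of the 41 were positive (6735 of all genes), with medians of -0.03 and -0.005. Whether the set as a whole moved was not tested.

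After 240 min of EGF, GBP1 and ISG20 were higher and IFI44, STAT2 and IRF2 were lower, in scramble and in shLAD1 cells alike. In scramble cells 5 genes were called (20.2% of all genes), 2 higher (11.7%) and 3 lower (8.44%). In shLAD1 cells the same 5 were called (18.5%), 2 higher (10.8%) and 3 lower (7.76%). The median difference was -0.17 in scramble and -0.12 in shLAD1 cells, with -0.02 and -0.01 over all genes. Neither share of the set exceeds that of all genes.

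GBP1 reached 2242 and 1785 normalized counts in scramble cells from 420.3 and 217, a rise of 2.72 ± 0.37 (adjusted p = 0.0017). In shLAD1 cells it reached 752 and 1304 from 196 and 153, a rise of 2.51 ± 0.37 (adjusted p = 0.00285). Between 40 and 240 min GBP1 was lower in shLAD1 number 1 (865 to 752) and higher in the other 3 populations. ISG20, an exonuclease that degrades single-stranded viral RNA, had 198, 278 and 405 and 218, 284 and 517 at 0, 40 and 240 min in the scramble numbers. In the shLAD1 numbers ISG20 had 190, 217 and 323 and 172, 263 and 378. It was higher at each later time in each population and rose by 1.14 ± 0.15 in scramble cells (adjusted p = 0.00104) and 0.95 ± 0.15 in shLAD1 cells (adjusted p = 0.00293).

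**Figure D4:**
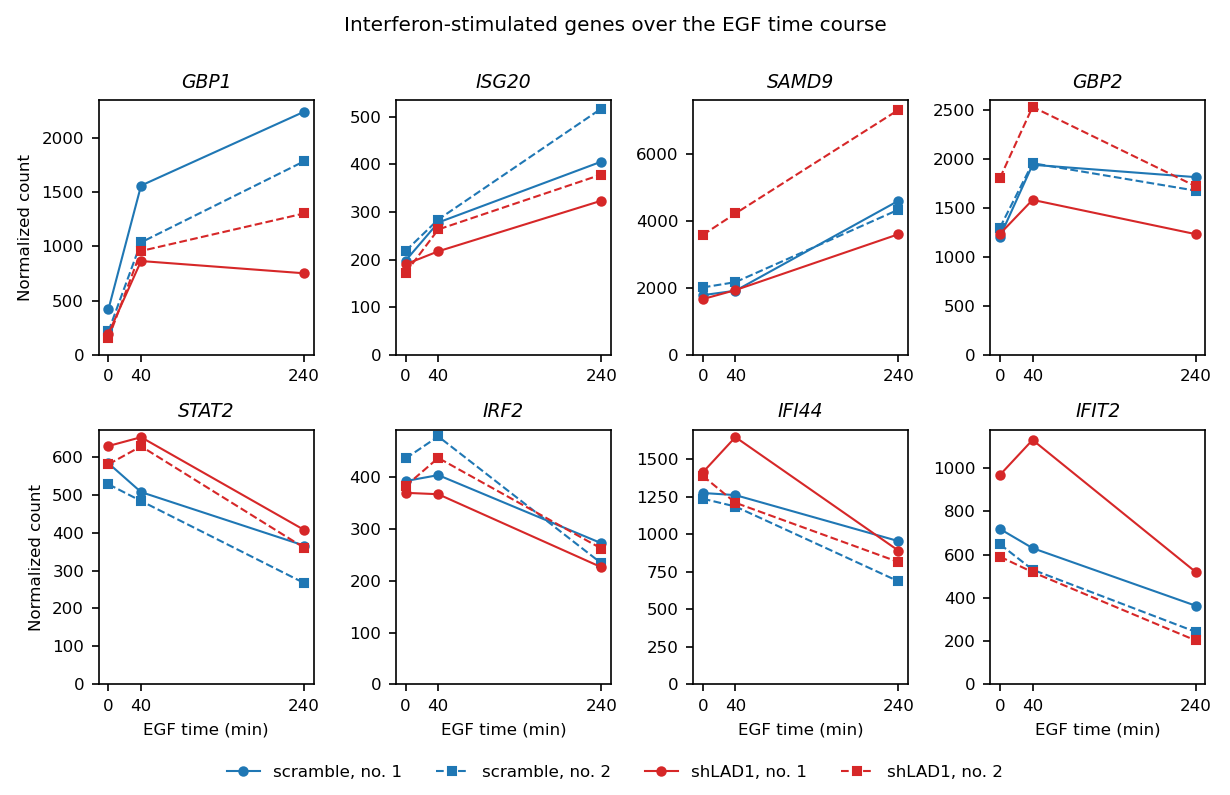
Normalized counts (y axes from 0) of 8 genes at 0, 40 and 240 min of EGF (x axis, to scale), 1 line for each population and 1 point for each library; colors and line styles are as in the plot of genes by cell population. GBP1 and ISG20 are higher at 40 and 240 min than at 0 min in every population, SAMD9 is higher at 240 min, GBP2 peaks at 40 min, and STAT2, IRF2, IFI44 and IFIT2 are lowest at 240 min.

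STAT2, a part of ISGF3, had 583, 507 and 366 and 528, 483 and 267 in the scramble numbers, and 628, 652 and 407 and 580.1, 628 and 360.2 in the shLAD1 numbers. All 4 libraries at 240 min were below all 8 earlier ones, and STAT2 fell in scramble (-0.82 ± 0.14, adjusted p = 0.0039) and shLAD1 cells (-0.66 ± 0.14, adjusted p = 0.0126). IRF2, a repressor that competes with IRF1, had 392, 404 and 272 and 436, 478 and 234 in the scramble numbers, and 369.6, 367 and 226 and 383, 437 and 262 in the shLAD1 numbers. IRF2 fell in both too (-0.71 ± 0.14, adjusted p = 0.00712, and -0.63 ± 0.14, adjusted p = 0.0137), again with no overlap between 240 min and earlier times. IFI44 had 1274, 1260 and 954 and 1236, 1184 and 686 in the scramble numbers, and 1411, 1646 and 890.1 and 1388, 1209 and 814 in the shLAD1 numbers. IFI44 fell by 0.63 in scramble (SE 0.17, adjusted p = 0.0276) and 0.72 in shLAD1 cells (adjusted p = 0.0184), with no overlap. Leaving out the scramble 0 min or 240 min library number 2 gave 3 calls, GBP1, ISG20 and STAT2, and leaving out the scramble 240 min library number 1 gave 9. In shLAD1 cells leaving out the 0 min library number 2 gave 3 calls, without IFI44 and IRF2, and leaving out the 240 min library number 2 gave 3, without IFI44 and STAT2. IFI44 was also lost without the scramble 0 min library number 1, IFI44 and STAT2 without the shLAD1 0 min library number 1, and IRF2 without the shLAD1 240 min library number 1.

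Across the set, 20 of the 41 genes were lower at 240 than at 0 min in all 4 populations (32.9% of all genes), and 6 were higher in all 4 (32.2%). Upper-quartile factors gave 20 (38.0% of all genes) and 6 (28.3%). Total-count scaling, which moved the median of all genes by -0.128 in scramble and -0.121 in shLAD1 cells, gave 24 (47.0%) and 5 (21.9%), so the number of lower genes depends on the scaling. The 6 higher genes were GBP1, GBP3, ISG20, MX2, OAS3 and SAMD9. SAMD9 had ratios of 2.04 to 2.58 in the 4 populations but was not called (1.24 ± 0.47, adjusted p = 0.108, in scramble cells). IFIT2 had ratios of 0.344 to 0.537, likewise uncalled (-1.20 ± 0.50, adjusted p = 0.139). The other IFIT genes, IFIT1 (0.282 to 0.676) and IFIT3 (0.436 to 0.76), were lower in all 4 populations, while IFIT5 (0.771 to 1.1), IFI6 (0.908 to 1.18) and IFI27 (0.921 to 1.07) lay around 1.

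With the replicate block, 14 genes were called at 240 min in scramble cells (32.7% of all genes) and 16 in shLAD1 cells (30.5%). In both, GBP3 (0.37 ± 0.11 in scramble cells) and OAS3 (0.23 ± 0.06) joined the higher genes, and IFIT1 (-1.19 ± 0.30), IFIT2 (-1.20 ± 0.29), IFIT3 (-0.79 ± 0.17) and IFI44L (-0.76 ± 0.19) the lower ones. In scramble cells SAMD9 was called higher (1.24 ± 0.36, adjusted p = 0.0465) and IFI35 and DHX58 lower. In shLAD1 cells HERC6, RSAD2, XAF1, PARP14 and USP18 were called lower. The block within each shRNA called 22 (48.1% of all genes) and 21 (46.2%), with SAMD9 higher in both (adjusted p = 2.14e-13 and 2.28e-12).

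Whether the EGF response differed between shLAD1 and scramble cells was tested as an interaction. Limma-trend called 0 of 41 genes at 40 min (0% of all genes) and 0 at 240 min (0%), with 0 of the 41 at an unadjusted p below 0.05 at either time, and edgeR and DESeq2 also called 0. At 40 min the difference of the responses was positive in 34 of the 41 genes (7234 of all 13950). Its median was 0.15 over the set and 0.005 over all genes. At 240 min 15 of the 41 were positive (7015 of all genes), with medians of -0.04 and 0.001. The difference of the responses at 240 min was -0.21 ± 0.52 for GBP1, -0.19 ± 0.21 for ISG20, 0.17 ± 0.20 for STAT2, 0.09 ± 0.19 for IRF2 and -0.08 ± 0.24 for IFI44 (difference ± standard error, shLAD1 minus scramble). The standard errors set how small a difference 2 libraries per group could show. With the block within each shRNA GBP2 was the 1 gene called at 240 min (0.194% of all genes; -0.51 ± 0.08, adjusted p = 0.00458). GBP2 stayed above its 0 min level in scramble cells (ratios of 1.5 and 1.29) and returned to it in shLAD1 cells (0.997 and 0.953).

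Other genes of the interferon pathway, 100 outside the set, give the surroundings, and 87 of them passed the filter. Of 7 interferon genes only IFNE, an epithelial type I interferon, passed it. IFNB1 (0 to 1.05 normalized counts), IFNL1 (0 to 7.93), IFNL2 (0 to 1.03), IFNL3 (0 to 1.02) and IFNK (0 to 2.23) were at or near 0, and IFNG had no read in any library, which allows up to 3 reads in a library. Of the signal carriers, IRF3 ran from 1139 to 1732, IFNAR1 from 845 to 1072 and JAK1 from 5802 to 9033. IFNAR1 was called in no comparison without the block and, with it, in the shRNA comparison (-0.14 ± 0.04), and JAK1 was lower in number 1 (-0.35 ± 0.06, adjusted p = 0.00436). Between the numbers 23 of the 87 pathway genes were called (24.3% of all genes), 8 higher in number 1 (11.8%) and 15 lower (12.5%), and with 1 mean per population none was, with 18 at an unadjusted p below 0.05.

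In the shRNA comparison 17 of 87 pathway genes were called (18.6% of all genes), 7 higher (9.25%) and 10 lower (9.30%) in shLAD1 cells, a share near the background. CXCL10, a chemokine induced by interferon, had 5.63 to 11.3 normalized counts in scramble cells and 0 to 2.05 in shLAD1 cells, without overlap (-2.12 ± 0.38, adjusted p = 0.00642), on few reads. GBP4 (-0.90 ± 0.21) and the DNA-sensing adaptor TMEM173 (STING, -0.61 ± 0.11) were lower, and so was the kinase IKBKE (-0.43 ± 0.10). CD274 (PD-L1), a checkpoint ligand, was higher (0.79 ± 0.14, adjusted p = 0.00696). PRKRA (0.20 ± 0.05), the receptor chain IL10RB (0.26 ± 0.07), the phosphatase PTPN6 (0.20 ± 0.05) and IRF3 (0.21 ± 0.04) were slightly higher, and IFNGR2 (-0.29 ± 0.07), PTPN2 (-0.23 ± 0.07) and STAT3 (-0.23 ± 0.06) slightly lower. The calls of TMEM173, CD274 and IRF3 held in all 12 fits that left out 1 library. CXCL10 passed the filter only through scramble number 2 at 0 and 240 min (11.3 and 10.0 normalized counts). It was therefore not tested without either of these libraries, and it entered 16 settings, against 20 for IRF3. As CXCL10 passed the filter only through the cells in which it is high, the fits it entered are no check of its call. Calls of the other named genes were lost in 4 to 9 of the 12 fits. The block gave 35 calls and a mean per population 0. The count fell to 4 without the scramble 0 min or 40 min library number 2, to 3 without the scramble 240 min library number 2 and to 6 without the shLAD1 240 min library number 1. It was 11 without number 1 of the scramble or the shLAD1 40 min libraries and 10 without the shLAD1 0 min library number 1.

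At 240 min of EGF 25 of 87 pathway genes were called in scramble cells (20.2% of all genes), 12 higher (11.7%) and 13 lower (8.44%), and 24 in shLAD1 cells (18.5%), 12 higher (10.8%) and 12 lower (7.76%). The JAK inhibitor SOCS1 rose by 1.81 ± 0.41 in scramble and 1.71 ± 0.41 in shLAD1 cells, and SOCS3 by 2.12 ± 0.62 and 2.85 ± 0.62. The SOCS3 call in scramble cells was lost without the low-count filter and without any 1 of the 4 libraries, and in shLAD1 cells without either 0 min library or 240 min number 2 (2.12 to 3.57 over the settings). PTPN6 (-0.58 ± 0.08 in scramble cells) and PIAS1 (-0.36 ± 0.10), also inhibitors, fell. IFNE rose by 1.48 ± 0.41 and 1.47 ± 0.41 in scramble and shLAD1 cells, and IFNGR2, a chain of the type II receptor, by 1.27 ± 0.12 and 1.48 ± 0.12. CD274 rose by 2.10 ± 0.25 and 2.35 ± 0.25. The death ligand TNFSF10 (TRAIL) changed by -1.98 ± 0.22 and -1.91 ± 0.22, the sensor TLR3 by -1.34 ± 0.18 and -1.44 ± 0.18 and TRIM38 by -0.83 ± 0.09 and -0.98 ± 0.09, all lower. IRF2BP2, a corepressor that binds IRF2, rose by 0.71 ± 0.10 and 0.82 ± 0.10, and without a block it was the only pathway gene called at 40 min, in shLAD1 cells (0.62 ± 0.10, adjusted p = 0.02). IRF3 rose by 0.30 ± 0.07 and 0.32 ± 0.07 and TRIM25, a ligase that activates RIG-I, by 0.42 ± 0.08 and 0.46 ± 0.08. Leaving out 1 of the 4 libraries also ended the calls of SOCS1, IFNE, IRF3, PIAS1 and TRIM25, in 2 to 4 of the fits in scramble cells and 1 to 3 in shLAD1 cells, and total-count scaling that of IRF3 in both. Without any 1 of the 4 scramble libraries the count in scramble cells was 13 to 16 (13 without each 0 min library and without number 2 of 240 min), and with the block it was 41.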

How the data were processed

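Poly-A RNA of 12 HCC70 libraries was sequenced from TruSeq RNA v2 libraries, per the labels' protocols. STAR, DESeq2 and the build hg19 are named in the submitters' processing notes; for these, the versions, and likewise the counting tool, annotation and use of strand, were not given in the sources used here. Deposited by the authors was 1 table of 26365 genes whose signal columns proved to be read counts over a size factor per library: whole reads came back for 100% of values within 0.001, 12428618 to 16721013 per library. It also holds the authors' log2 fold change, p-values and a test statistic (a score).

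The design gave edgeR for raw counts; as the file holds normalized values, the main test was robust limma-trend (limma 3.58.1 in R 4.3.3) of log2(normalized count + 1). It fitted a mean per group over all 12 libraries for the 13950 genes that reached 10 normalized counts in 2 or more libraries, with Benjamini-Hochberg adjustment over all of them. The number 1 against 2 comparisons used the group and the number, or the number within each shRNA. Alternatives were edgeR 4.0.16 (TMM), DESeq2 1.42.0, other scalings, a pseudocount of 0.5, no filter, a replicate block, population means and leaving out each library. The tests were tried on simulated data drawn as independent libraries, without the correlation between libraries of a population given next. That trial does not show how this correlation affects the calls. The label numbers paired the samples: deviations from group means correlated at 0.645 to 0.734 in the 6 group pairs of 1 shRNA and 0.247 to 0.307 in the 9 pairs across shRNAs. Libraries of a group differed beyond counting noise (chi-square per degree of freedom 9.04 to 22.6). Every gene of the set was described, with values in each library for those called in any comparison and for the 3 most abundant uncalled ones; of the other pathway genes, called ones were named, up to 3 per role and comparison, with IRF3, IFNAR1 and JAK1, and the uncalled interferon genes were added after their values were seen. The genes and lists were chosen with earlier results of these data known. Genes sharing exons with another were found in GENCODE 29; no coordinates of it are used. A few genes of the pathway and marker lists are not reported here by name.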

Additional observations from a re-analysis of the deposited data

Results flagged for a closer look

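For 9 genes the number 1 to number 2 difference itself differed between shLAD1 and scramble cells, by a test of that difference (limma-trend, 3 times per population, all 13950 genes, a comparison added after the values were seen). The value is the number 1 minus number 2 difference in shLAD1 cells minus that in scramble cells, on the log2 scale. It was 1.46 for IFITM1 (SE 0.08, adjusted p = 1.29e-12), 1.17 for OASL (adjusted p = 4.26e-08) and 0.995 for IFITM3 (adjusted p = 4.88e-10). HERC5 was at 0.78 (adjusted p = 0.000217), IFIT2 at 0.74 (adjusted p = 0.0131) and BST2 at 0.42 (adjusted p = 2.47e-06). The values were negative for SAMD9 at -0.99 (adjusted p = 3.23e-10), GBP2 at -0.57 (adjusted p = 7.53e-07) and GBP3 at -0.35 (adjusted p = 9.92e-05).

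The population that stood apart was not the same for each gene. Means over the 3 times put IFITM1 at 448 ± 36.1 (SD) normalized counts in shLAD1 number 2, against 1122 ± 32.8 in shLAD1 number 1 and 1023 ± 123 and 1121 ± 101 in scramble numbers 1 and 2. SAMD9 was at 5048 ± 2000 in shLAD1 number 2 and 2403 to 2845 in the other populations. OASL was at 891 ± 67.1 in shLAD1 number 1 and 385 to 457 elsewhere. With 1 population for each shRNA and number, a property of the shRNA cannot be told apart from one of the single population, and of all genes tested 23.4% were called in this comparison.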

How the results depend on the processing

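No difference called for a gene of the set, and none called for a pathway gene in the shRNA comparison or at 240 min of EGF, changed sign under the alternatives run; signs of uncalled differences were not compared. The count of genes called among the 41 moved most with the treatment of the library numbers. The replicate block gave 13 in the shRNA comparison over 3 times, 6, 7 and 4 at 0, 40 and 240 min, 14 in scramble and 16 in shLAD1 cells for EGF at 240 min, and 2 at 40 min in shLAD1 cells; among the 87 pathway genes it gave 35 for the shRNA and 41 for EGF at 240 min in scramble cells. It changed no call in the other comparisons. The block within each shRNA, chosen after seeing the data, gave 2 and 22 in scramble cells at 40 and 240 min (3.80% and 48.1% of all genes), 6 and 21 in shLAD1 cells (4.77% and 46.2%), 1 for the 240 min interaction and 51 pathway genes at 240 min. A mean per population gave 0 genes of the set and 0 pathway genes for the shRNA, and, chosen after seeing the data, 0 genes of the set for the numbers. DESeq2 gave 1 for the shRNA at 40 min and 1 at 240 min, and in scramble cells 1 for EGF at 40 min. Leaving out 1 library gave 2 to 5 for the shRNA over 3 times and 0 to 0 at each time. For EGF it gave 0 to 1 and 3 to 9 in scramble cells at 40 and 240 min, 0 to 0 and 3 to 6 in shLAD1 cells, and 0 to 0 for both interactions. For the numbers it gave 17 to 22 in all groups, 15 to 18 in scramble, 22 to 24 in shLAD1 cells and 8 to 14 for their interaction, and for pathway genes 3 to 19 (shRNA) and 13 to 16 (EGF). The cause of these moves was not tested. With 2 libraries a group, a leave-one-out fit of the shRNA or EGF comparisons assumes that the lone library varies like the other groups. In the number 1 against 2 fits the lone library of a group adds nothing to the difference. Leaving out number 1 or number 2 of a group therefore gives the same difference there. The printed standard errors are not a limit of detection, as differences of several standard errors also went uncalled (GBP1 at 40 min in scramble cells).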
